A study of Gallus gallus with 6 samples.

Results

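The genes described here encode matrix metalloproteases (MMP2, MMP9, MMP15 and MMP16), proteases of the ADAMTS family (ADAMTS1 and ADAMTS9), tissue inhibitors of metalloproteases (TIMP2 and TIMP3) and the proprotein convertases PCSK6 and FURIN. They were taken by gene name from the deposited tables, where each name had 1 row, giving 10 of 24356 genes. RNA sequencing had been run on chicken ocular lens tissue cultured after an operation modelled on cataract surgery. The vehicle group received DMSO and the other group GSK-J4, a compound that enters cells and blocks the enzymes KDM6A and KDM6B, which remove methyl groups from histone H3, daily from day 1 to day 3 after the injury, with 3 libraries per group and 10% fetal bovine serum in the medium of both. The labels give no strain, age, drug dose or number of animals per library. They do not say that a group's libraries came from different animals. The p-values therefore rest on the spread between these libraries, which may be partly technical. The share of counts on chromosome W, given below, differed between libraries of a group.

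Matrix metalloproteases are zinc enzymes that cut collagens, gelatin, fibronectin and other components outside the cell, and ADAMTS proteases cut proteoglycans and procollagens. Both are made as inactive precursors. Proprotein convertases cut precursors after paired basic residues, among them membrane-type metalloproteases, ADAMTS proteases and TGF-beta family ligands, and TIMP proteins block the active metalloproteases. In the injured lens, metalloproteases are best known for remodelling the capsule and for their activity in epithelial cells that turn into myofibroblasts.

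The libraries held between 14862268 and 22541756 counts. CPM values below are counts scaled to the library total with edgeR's TMM factors. Levels of the 10 genes are compared with each other only in FPKM, which divides by gene length. Marker sums and the most abundant gene of a list are given in CPM, which does not. Of 10 lens fibre markers in the table, all were tested, with sums of 90810 to 113600 CPM in the vehicle libraries and 109000 to 129700 CPM in the treated ones. The 9 myofibroblast markers summed to 3097 to 4354 CPM in the vehicle libraries and 1227 to 1854 CPM in the treated ones, and 6 of the 9 fell. The 6 lens epithelial markers found summed to 1560 to 1873 CPM with DMSO and 2109 to 2171 with GSK-J4. They did not move together. GJA1 was called higher (mean 1049 CPM with DMSO, 1482 with GSK-J4, edgeR adjusted p = 0.0387). AQP1 was called lower (log2 fold change -1.54, edgeR adjusted p = 0.00332), and the others were not called. Sums were far lower for vascular endothelium (22.2 to 34.5 and 24.96 to 34.1, made up mostly of PECAM1 and KDR, with CDH5 at 0 in every library), striated muscle (24.4 to 53.2 and 19.8 to 32.0, made up mostly of DES and TNNI2, with MYOG and MYF5 at 0), red blood cells (13.6 to 17.2 and 9.61 to 14.1, almost wholly ALAS2) and retina or pigment epithelium (2.28 to 2.98 and 2.50 to 2.94, with OTX2 and TYR at 0). Of the striated muscle markers TNNI2 fell (log2 fold change -2.62, edgeR adjusted p = 0.00175). KDM6A had 39.1 ± 2.50 CPM in the DMSO group against 39.8 ± 2.85 CPM in the GSK-J4 group (SD, n = 3 each), which did not pass the test (edgeR adjusted p = 0.944). Counts on the female-specific chromosome W made up 0.0354% to 0.0978% of 5 libraries and 0.0015% of GSK-J4 replicate 3, so the share of female tissue differed between libraries. None of the 10 genes lies on a sex chromosome in the tables.

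PCSK6 rose with GSK-J4, while MMP2, ADAMTS9 and TIMP3 fell, and the other 6 genes did not pass the test. All 10 genes passed edgeR's filter on low counts. With edgeR's quasi-likelihood test and Benjamini-Hochberg adjustment over all 12583 tested genes, 1 of the 10 was called higher and 3 lower at an adjusted p below 0.05, against 1.05% higher and 3.99% lower among all tested genes (5.04% in either direction). Their median log2 fold change, always GSK-J4 minus DMSO, was -0.59, beside 0.01 for all tested genes. The CPM ranges of the groups did not overlap for 8 of the 10, against 24.3% of all tested genes. MMP15 and ADAMTS1 were the pair whose groups overlapped. The 10 genes were chosen with earlier results of these data known, so these comparisons with all genes are not a test.

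**Figure D1:**
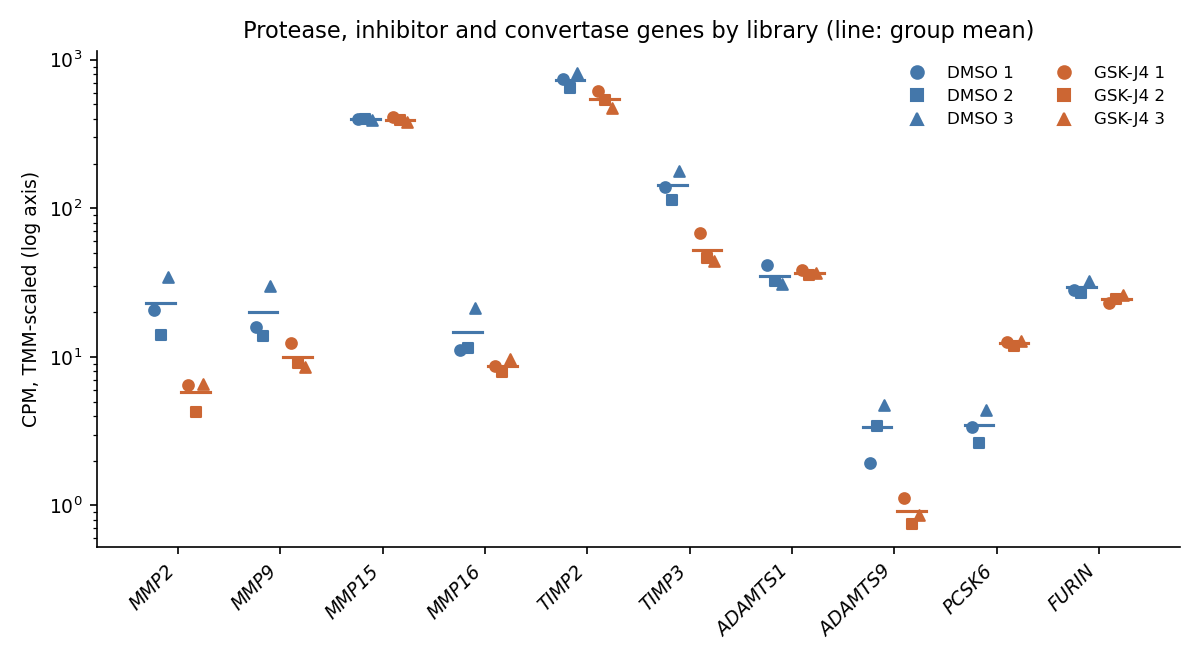
CPM on a log axis for each gene in each of the 6 libraries, with DMSO in blue, GSK-J4 in orange, a marker shape per replicate number and a line at the group mean. MMP2, TIMP3 and ADAMTS9 lie lower and PCSK6 higher with GSK-J4, and the triangle of DMSO replicate 3 is the highest DMSO point for 8 of the 10 genes.

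Among the gelatinases, which cut denatured collagen and the type IV collagen of basement membranes, MMP2 fell. Its levels were 20.7, 14.1 and 34.7 CPM in DMSO replicates 1, 2 and 3, and 6.44, 4.25 and 6.60 CPM in GSK-J4 replicates 1, 2 and 3. Every GSK-J4 library was below every DMSO library, and DMSO replicate 3 stood highest. The mean went from 23.2 ± 10.5 to 5.76 ± 1.31 CPM (SD, n = 3 each), a 4.05-fold decrease with a log2 fold change of -2.02 (SE 0.31, edgeR adjusted p = 0.00385). In bulk tissue, fewer cells that express a gene and less RNA per cell cannot be told apart. Leaving out any 1 library kept the call, with log2 fold changes of -2.27 to -1.60 and adjusted p of 0.000691 to 0.0297, but limma on log2(FPKM + 0.1) without a filter gave an adjusted p of 0.0541. The tables place MMP2 (ENSGALG00000003580) on chromosome 11 at 3706912 to 3741657, minus strand (the build is not stated in the tables or labels).

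MMP9, the second gelatinase and in many tissues a product of white blood cells, did not pass the test. It had 15.9, 13.8 and 30.1 CPM in DMSO replicates 1, 2 and 3, and 12.4, 9.11 and 8.53 CPM in GSK-J4 replicates 1, 2 and 3. The groups did not overlap, but DMSO replicate 3 was far above the other DMSO libraries. The log2 fold change was -0.99 (95% interval -1.62 to -0.37, edgeR adjusted p = 0.0749), and -0.57 without DMSO replicate 3 (adjusted p = 0.237). It was called without DMSO replicate 2 (adjusted p = 0.026) and by DESeq2 (adjusted p = 0.00882). The 11 leukocyte markers in the table summed to 26.6, 18.8 and 5.96 CPM in DMSO replicates 1, 2 and 3 and to 5.24 to 13.1 CPM with GSK-J4, so the DMSO library with the highest MMP9 had the lowest leukocyte sum of its group. PTPRC, which all leukocytes carry, had 14 to 40 counts per library and a log2 fold change of 0.38. Every other tested marker of this list had a negative value, from -1.90 (ITGB2) to -0.29 (LAPTM5). Of the 8 tested, 0 were called. The part of these cells in the MMP9 level was not tested. The FPKM ratio of MMP2 to MMP9 went from 0.970 ± 0.114 with DMSO to 0.491 ± 0.137 with GSK-J4 (SD, n = 3 each).

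MMP15 and MMP16 belong to the membrane-type metalloproteases, which are held at the cell surface and carry a convertase site before the catalytic domain. Per length, MMP15 was the most abundant of the 12 MMP genes that had a symbol and a count, and it was level across libraries. It had 402, 398 and 390.1 CPM in DMSO replicates 1, 2 and 3, and 412, 391 and 382 CPM in GSK-J4 replicates 1, 2 and 3. The groups overlapped throughout, with a log2 fold change of -0.01, a 95% interval of -0.21 to 0.20 and an edgeR adjusted p of 0.981. In FPKM, MMP15 took 81.8% ± 4.94 of the summed level of those 12 MMP genes with DMSO and 86.1% ± 0.869 with GSK-J4 (SD, n = 3 each). Of 17 other MMP genes sought, 8 were found by symbol. MMP14 was not found, so the share does not cover the whole family. MMP16 was lower in each GSK-J4 library than in each DMSO library, at 11.1, 11.6 and 21.2 CPM in DMSO replicates 1, 2 and 3 and 8.63, 7.94 and 9.61 CPM in GSK-J4 replicates 1, 2 and 3. Its log2 fold change of -0.75 (95% interval -1.30 to -0.19) did not pass the test (edgeR adjusted p = 0.128), and the value was -0.38 without DMSO replicate 3.

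Of the inhibitors, TIMP3, which binds to the matrix itself and also blocks ADAM and ADAMTS proteases, fell. It stood at 139, 113 and 179.6 CPM in DMSO replicates 1, 2 and 3 and at 67.7, 46.0 and 44.2 CPM in GSK-J4 replicates 1, 2 and 3. The lowest DMSO library was well above the highest GSK-J4 library. The decrease was 2.73-fold, with a log2 fold change of -1.45 (SE 0.20, edgeR adjusted p = 0.00175), and held in all 6 fits that left out a library (adjusted p 0.000873 to 0.0188). TIMP3 (ENSGALG00000028627) lies on chromosome 1 at 53094947 to 53127580 on the minus strand, inside the span of SYN3 on the plus strand. The labels do not say whether reads were counted by strand, and SYN3 itself held 30 to 117 counts per library against at least 617 for TIMP3.

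TIMP2, a secreted inhibitor that also takes part in the activation of pro-MMP2 at the cell surface, had the highest level of the 10 genes per length. It measured 747, 646 and 810.4 CPM in DMSO replicates 1, 2 and 3 and 620.0, 535 and 476 CPM in GSK-J4 replicates 1, 2 and 3. The groups did not overlap, but the log2 fold change of -0.43 (95% interval -0.72 to -0.15) did not pass the test (edgeR adjusted p = 0.0857). It was called without DMSO replicate 2 (adjusted p = 0.0457), with no filter (0.0464) and by DESeq2 (0.039). The summed FPKM of TIMP2, TIMP3 and TIMP4 was 621 ± 97.5 with DMSO and 406 ± 63.5 with GSK-J4 (SD, n = 3 each). That of the 12 MMP genes was 160.5 ± 10.9 and 152 ± 8.10. TIMP1 and MMP14 were not found by symbol and enter neither sum. The ratio of the inhibitor sum to the metalloprotease sum was 3.94, 3.46 and 4.17 in DMSO replicates 1, 2 and 3, and 2.94, 2.64 and 2.39 in GSK-J4 replicates 1, 2 and 3. Each GSK-J4 library was below each DMSO library. TIMP2 alone made up 76.4% ± 2.20 of the inhibitor sum with DMSO and 86.7% ± 1.41 with GSK-J4 (SD, n = 3 each).

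The aggrecanase-type proteases ADAMTS1 and ADAMTS9, which cut large proteoglycans such as versican, had different outcomes in the test. ADAMTS9 fell from a low level, with raw counts of 34, 59 and 79 in DMSO replicates 1, 2 and 3 and of 18, 16 and 12 in GSK-J4 replicates 1, 2 and 3. In CPM these were 1.93, 3.45 and 4.76 against 1.13, 0.747 and 0.861, without overlap. The log2 fold change was -1.89 (SE 0.42, edgeR adjusted p = 0.026). The call ended when DMSO replicate 3 (adjusted p = 0.109), GSK-J4 replicate 2 (0.134) or GSK-J4 replicate 3 (0.101) was left out, with limma-voom (0.0589) and with limma on log2(FPKM + 0.1) without a filter (0.166). ADAMTS1 overlapped between the groups, at 41.5, 32.2 and 31.1 CPM in DMSO replicates 1, 2 and 3 and 38.5, 35.3 and 36.6 CPM in GSK-J4 replicates 1, 2 and 3. Its log2 fold change was 0.07 with a 95% interval of -0.24 to 0.38 (edgeR adjusted p = 0.833), and its sign turned with library totals as the scaling (-0.02). The FPKM ratio of ADAMTS9 to ADAMTS1 was 0.0453 ± 0.0236 with DMSO and 0.0109 ± 0.00185 with GSK-J4 (SD, n = 3 each).

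**Figure D2:**
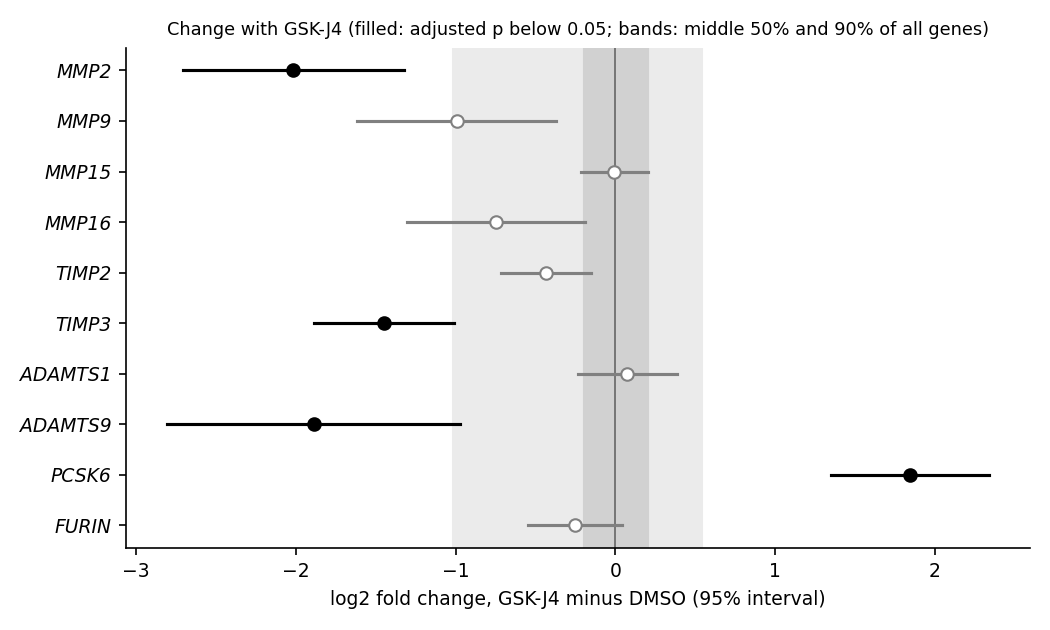
Log2 fold change of each gene (GSK-J4 minus DMSO) with its 95% interval from the edgeR fit, filled where the adjusted p was below 0.05, over grey bands that hold the middle 50% and 90% of all tested genes. MMP2, TIMP3 and ADAMTS9 (-2.02, -1.45 and -1.89) lie left and PCSK6 (1.84) right of the wider band, and MMP15 and ADAMTS1 lie near 0.

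PCSK6 encodes the convertase PACE4, which is secreted, binds heparan sulfate in the matrix and is known from mammalian studies to activate ADAMTS proteases and TGF-beta family ligands. It had 3.36, 2.63 and 4.395 CPM in DMSO replicates 1, 2 and 3 and 12.6, 11.9 and 12.8 CPM in GSK-J4 replicates 1, 2 and 3. The GSK-J4 libraries lay close together, with a coefficient of variation of 3.63% against 25.7% with DMSO, and all were above the highest DMSO library. The rise was 3.58-fold, with a log2 fold change of 1.84 (SE 0.22, edgeR adjusted p = 0.000886), the 27th largest rise among the tested genes. Raw counts were 45 to 73 with DMSO and 178 to 255 with GSK-J4. Leaving out any 1 library gave log2 fold changes of 1.68 to 2.05 and adjusted p of 0.000902 to 0.00761. PCSK6 (ENSGALG00000030076) lies on chromosome 10 at 18068294 to 18090172 on the minus strand, within the span of PLEKHO2 on the plus strand. PLEKHO2 had a log2 fold change of -0.22, was not called and held 94 to 158 counts per library, more than PCSK6 with DMSO. The labels do not say whether reads were counted by strand, and the part of such reads in the PCSK6 counts was not tested.

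FURIN, the convertase of the trans-Golgi network that acts in most cells, did not pass the test. It had 28.4, 27.0 and 32.6 CPM in DMSO replicates 1, 2 and 3 and 23.02, 24.6 and 26.2 CPM in GSK-J4 replicates 1, 2 and 3, without overlap. Its log2 fold change was -0.26, with a 95% interval of -0.55 to 0.04 (edgeR adjusted p = 0.343). The gene lies on the same chromosome as PCSK6, 2452941 bases away. The FPKM ratio of PCSK6 to FURIN, which does not depend on how libraries are scaled, was 0.122, 0.101 and 0.139 in DMSO replicates 1, 2 and 3 and 0.564, 0.501 and 0.504 in GSK-J4 replicates 1, 2 and 3. Even so PCSK6 remained below FURIN in each library.

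**Figure D3:**
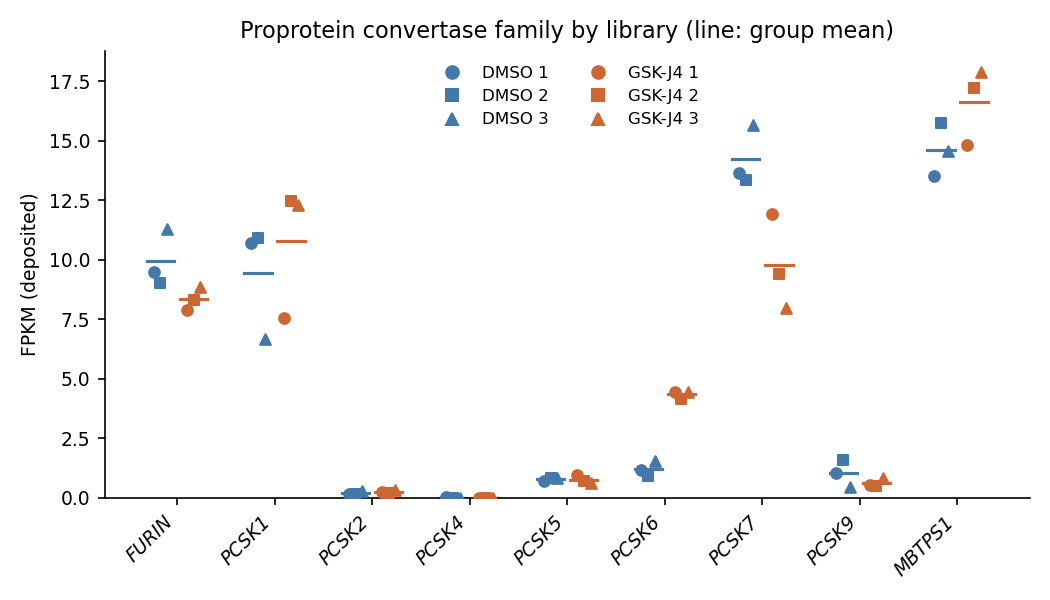
Deposited FPKM of the 9 proprotein convertase genes in each library, with DMSO in blue, GSK-J4 in orange and a line at the group mean. PCSK6 rises from 1.21 to 4.36 FPKM on average, while the libraries of PCSK1, PCSK5 and MBTPS1 overlap between the groups. FURIN and PCSK7 lie lower with GSK-J4 without overlap, though neither was called by edgeR.

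Across the 9 convertase genes the summed FPKM was 51.5 ± 1.05 with DMSO and 51.5 ± 2.71 with GSK-J4 (SD, n = 3 each), and PCSK6 made up 2.36% ± 0.667 and 8.49% ± 0.680 of it. FURIN made up 19.3% ± 2.44 and 16.2% ± 0.456. Besides PCSK6 and FURIN, 5 convertases were tested and 0 were called by edgeR, with 1 at an unadjusted p below 0.05 and 1 called lower by DESeq2. PCSK7, a widely expressed convertase named after its values were seen, had 46.8 ± 3.24 CPM in the DMSO group against 31.9 ± 6.24 CPM in the GSK-J4 group (SD, n = 3 each), without overlap and with an edgeR adjusted p of 0.0657. PCSK7 lies at 5239297 to 5255186 on the minus strand of chromosome 24. TAGLN on the plus strand ends at 5239380, so their spans overlap. TAGLN held 7072 to 32614 counts per library and fell (log2 fold change -1.57), while PCSK7 held 367 to 839. The part of TAGLN reads in the PCSK7 counts was not tested. MBTPS1, which cuts the sterol-sensing SREBP precursors, had the highest mean CPM of this list, with a log2 fold change of 0.18 (edgeR adjusted p = 0.477). For ratios, sums and shares of this kind, 15 measures were compared between the groups by a two-sided exact permutation test. For 12 of them this exact test gave p = 0.1, the smallest that 3 against 3 allows, or 0.125 after Benjamini-Hochberg adjustment, so none could pass 0.05. They include the ratios of PCSK6 to FURIN, MMP2 to MMP9, ADAMTS9 to ADAMTS1 and of inhibitors to metalloproteases. The other 3 were the convertase sum (p = 1, exact permutation test), the MMP sum (p = 0.4) and the share of ADAMTS1 among ADAMTS genes (p = 0.5).

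In order of FPKM with DMSO, TIMP2 (473 ± 60.9) came first, followed by TIMP3 (147 ± 37.1), MMP15 (131 ± 0.795), ADAMTS1 (13.5 ± 2.04), FURIN (9.93 ± 1.19), MMP9 (8.23 ± 3.84), MMP2 (8.005 ± 3.79), MMP16 (2.68 ± 1.10), PCSK6 (1.21 ± 0.334) and ADAMTS9 (0.583 ± 0.254), each with the SD of 3 libraries. TIMP3 and MMP15 overlapped, as did FURIN, MMP9 and MMP2, and the range of ADAMTS1 overlapped that of MMP9. With GSK-J4, MMP15 (131 ± 6.29) stood above TIMP3 (54.2 ± 13.96), and PCSK6 (4.36 ± 0.166) moved from the ninth place to the sixth, where its range overlapped that of MMP9 (4.14 ± 0.898). MMP2 was at 1.99 ± 0.458 and overlapped MMP16 at 1.60 ± 0.1497.

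The wider protease and inhibitor families were mostly not called. Of 55 tested genes besides the 10, in lists of other metalloproteases, inhibitors, ADAMTS and ADAM proteases, convertases, plasminogen activators, procollagen-processing enzymes and cathepsins, 1 was higher and 5 were lower (10.9%, against 5.04% of all tested genes). Their median log2 fold change was 0.00. These lists were also chosen with earlier results of these data known, so the comparison of shares is not a test. The count of 6 became 1 when DMSO replicate 3 was left out and 0 when GSK-J4 replicate 2 or 3 was, where 15 genes each had an unadjusted edgeR p below 0.05. With DESeq2 it was 10.

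The 5 lower genes came from 4 lists. ADAMTS2, which removes the amino-terminal propeptide of procollagen, was the 1 called gene of 12 tested ADAMTS proteases, at a log2 fold change of -1.42 (edgeR adjusted p = 0.0267). ADAMTSL2 (-1.10), a matrix protein without protease activity, was the 1 of 3 ADAMTS-like genes. ADAM8 (-1.30) and ADAM33 (-1.94), membrane-anchored proteases, were 2 of 8 ADAM genes, and SERPINE2 (-1.49), which inhibits thrombin and plasminogen activators, was the 1 of 3 genes of the plasminogen system. None of the 5 was called when GSK-J4 replicate 2 was left out (adjusted p 0.143 for ADAMTS2, 0.109 for ADAMTSL2, 0.132 for ADAM8, 0.158 for ADAM33 and 0.101 for SERPINE2) or when GSK-J4 replicate 3 was (0.115, 0.0685, 0.0868, 0.134 and 0.0906). Leaving out DMSO replicate 3 ended the calls of ADAMTS2 (0.093), ADAMTSL2 (0.0616), ADAM33 (0.132) and SERPINE2 (0.0781), leaving out GSK-J4 replicate 1 those of ADAM8 (0.0549) and SERPINE2 (0.0715), and leaving out DMSO replicate 2 that of SERPINE2 (0.0777).

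The 1 higher gene was CTSV, a lysosomal cysteine protease and the most abundant cathepsin gene in CPM, which went from 384 ± 50.4 to 537 ± 30.7 CPM (SD, n = 3 each; log2 fold change 0.49, edgeR adjusted p = 0.0383). The tables place it on the sex chromosome Z, and the share of counts on chromosome W differed between the libraries; the part of this in the call was not tested. Its call was lost in 5 of the 6 fits that left out a library and held without DMSO replicate 2, with adjusted p of 0.0556 and 0.0949 for leaving out DMSO replicates 1 and 3, and of 0.0567, 0.142 and 0.142 for GSK-J4 replicates 1, 2 and 3. No other cathepsin or cystatin of the 11 tested was called. In the lists of other metalloproteases (5 tested), other inhibitors (4) and procollagen-processing enzymes (4), 0 genes were called by edgeR, with 2, 1 and 1 at an unadjusted p below 0.05 and 1, 1 and 0 called by DESeq2. The most abundant in CPM of these lists were MMP11 (log2 fold change 0.76, edgeR adjusted p = 0.0605), SPOCK2, a proteoglycan that modulates metalloproteases (0.42, 0.0629), and TLL2, a tolloid-type procollagen C-proteinase (0.39, 0.296).

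**Figure D4:**
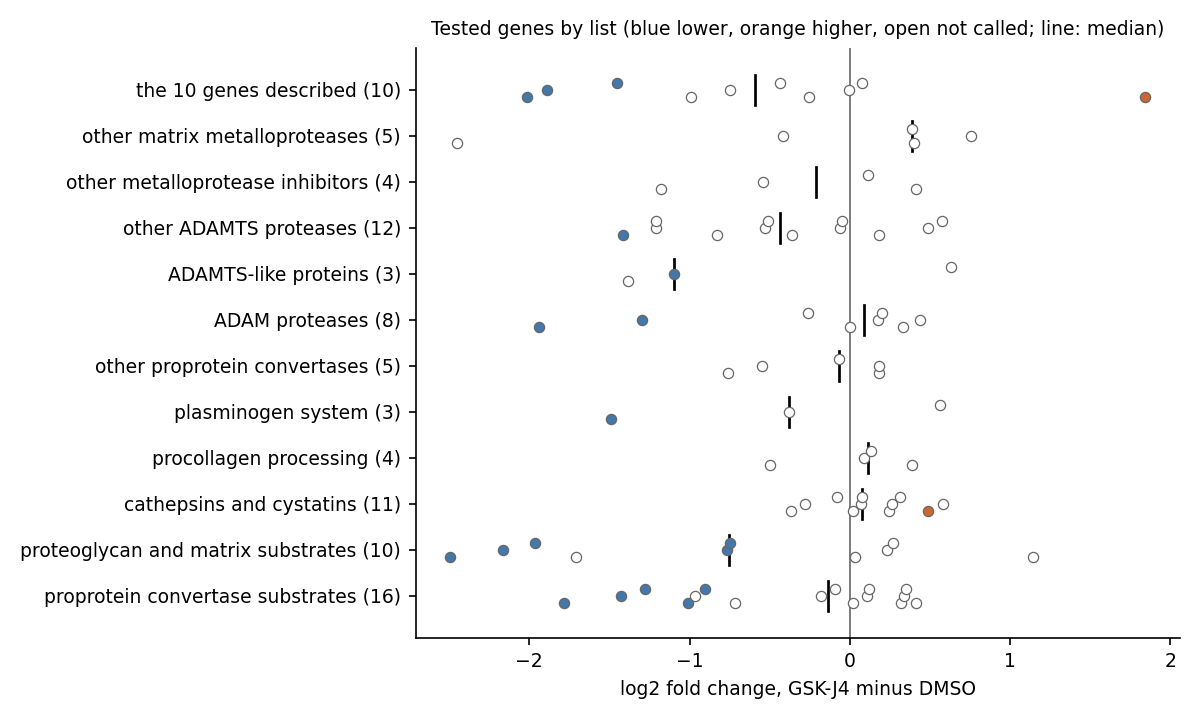
Log2 fold change (GSK-J4 minus DMSO) of every tested gene in each list, with the number tested in brackets, blue for lower, orange for higher and open for not called, and a black line at each median. The 10 genes described have a median of -0.59, and the list of matrix substrates -0.76.

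Among genes for matrix proteins that these proteases cut, 5 of 10 tested were lower and 0 higher by edgeR, against 3.99% lower and 1.05% higher among all tested genes, with a median of -0.76. With DESeq2, 6 were lower and 0 higher, and 0 were higher at an unadjusted p below 0.05. The lower genes were the fibrillar collagens COL1A1 and COL1A2, fibronectin (FN1) and the capsule collagens COL4A1 and COL4A2, and 3 of these (COL1A1, COL1A2 and FN1) are also in the myofibroblast list above. The count was 3 when DMSO replicate 3 or either of GSK-J4 replicates 2 and 3 was left out. The other 5 tested genes did not pass the test, namely the laminins LAMA5 (0.27), LAMB1 (0.23) and LAMC1 (0.03) and the proteoglycans NCAN (1.14) and BCAN (-1.71), which are outside the rule for named genes. Among 16 tested genes for proteins that convertases cut, 5 were lower, namely the ligand genes TGFB1, TGFB3, BMP4, INHBA and VEGFC (31.2% called, against 3.99% lower among all tested genes), and 0 were higher, with 3 higher at an unadjusted edgeR p below 0.05 and 0 higher by DESeq2. That count was 2 when DMSO replicate 3 was left out and 1 when GSK-J4 replicate 2 or 3 was, and the list median was -0.14. TGFB3 was called in all 6 fits that left out a library, INHBA in 4, BMP4 in 3, and TGFB1 and VEGFC in 2 each. The other 11 tested genes of the list, 6 of them for ligands and 5 for receptors or integrins, did not pass the test. Both substrate lists were chosen with earlier results of these data known, so their comparisons with all genes are not a test.

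**Figure D5:**
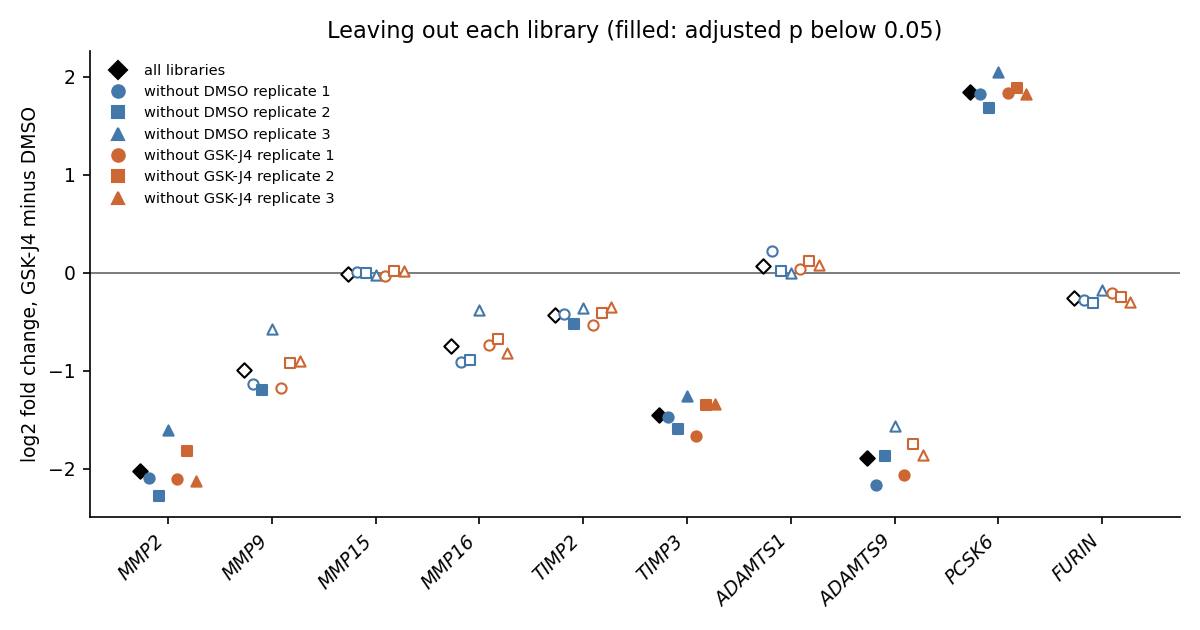
Log2 fold change of each gene (GSK-J4 minus DMSO) with all libraries (black diamond) and without each library in turn, filled where the edgeR adjusted p was below 0.05. MMP2, TIMP3 and PCSK6 stay filled in all 6 such fits, ADAMTS9 in 3, and MMP9 and TIMP2 are filled in 1 each.

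The genes whose profile over the 6 libraries was nearest to that of 3 of the genes were found by the root mean square distance between log2 CPM centred on each gene's mean, among 8623 named genes with at least 5 CPM. For PCSK6 these were TSC22D3 (distance 0.13), SESN2 (0.23), CDKN1A (0.24) and PYCR1 (0.30), against a median distance of 0.94. For MMP2 they were RACGAP1 (0.20), LMCD1 (0.20), COL1A1 (0.24) and FN1 (0.25), against a median of 1.08. For TIMP3 they were S100A11 (0.08), TAGLN (0.10), KIF4A (0.10) and ITGB3 (0.11), against a median of 0.81. Since the nearest genes were picked for small distances, lying below the median was fixed in advance. The distance includes the treatment difference, so genes with a similar log2 fold change lie near. The neighbours had 1.36 to 1.77 for PCSK6, -2.16 to -1.79 for MMP2 and -1.57 to -1.30 for TIMP3. TAGLN, COL1A1 and FN1 are in the myofibroblast list, whose sum was lower in each GSK-J4 library. The other neighbours of MMP2 and TIMP3, namely RACGAP1, LMCD1, S100A11, KIF4A and ITGB3, are not in that list. The part of the myofibroblast state in the fall of MMP2 and TIMP3 was not tested.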

How the data were processed

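Chicken lens libraries, 3 with DMSO and 3 with GSK-J4, were grouped and numbered by their titles. The deposited counts are unnormalised whole numbers for each gene. The authors' FPKM values were found to be those counts per length, over a single factor for each library, to within 1e-06 for every gene with a count. Per the submitters' processing notes, DESeq2 1.20.0, HISAT2 2.0.5, StringTie 1.3.3b and featureCounts 1.5.0-p3 are listed, with no role for each. Genome build and strand setting are, likewise, not given in the sources used here. Reads were 150 bp and paired, per the labels. Symbols came from the tables for 13688 genes and from a RefSeq table (GRCg7b, names only) for another 710.

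Counts were tested in R 4.3.3 with edgeR 4.0.16 (filterByExpr, TMM, robust quasi-likelihood F test, treatment as the only factor, all 6 libraries), and calls were made at a Benjamini-Hochberg adjusted p below 0.05 over all genes. The fit was tested on simulated data. The SE of a log2 fold change is its size over the root of the F statistic. Profiles used log2 CPM with a prior count of 2. The common biological coefficient of variation was 16.9%. Alternatives were 3 other scalings, 2 other filters, DESeq2 1.42.0, limma 3.58.1 (voom, and trend on log2(FPKM + 0.1) or log2(FPKM + 1) with a minimum mean FPKM of 0.5, the first also without it), a replicate block and leaving out each library.

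The 10 genes and all lists were chosen with earlier results of these data known. Named genes were the 10, every called gene of each list or else its most abundant gene in CPM, the 4 nearest profiles to MMP2, TIMP3 and PCSK6, and KDM6A. Any other gene named, apart from marker genes and the absent MMP14 and TIMP1, was chosen after its values were seen. KDM6B was sought but not found by symbol, so it was not analysed here.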

Additional observations from a re-analysis of the deposited data

How the results depend on the processing

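The calls of TIMP3 and PCSK6 held under all 17 alternatives and that of MMP2 under 16, the exception being log2(FPKM + 0.1) with no filter (adjusted p = 0.0541). ADAMTS9 was called in 10 of 15, and its low counts limit the precision of its value. The genes called lower among the 10 were 3, and were 5 with DESeq2, 1 with log2(FPKM + 0.1) and no filter, and 2 to 5 when a library was left out, while PCSK6 was the 1 called higher throughout. The uncalled MMP15 changed sign with no filter (0.0065), in the 3 FPKM settings (0.001 each), and in 3 fits without 1 library (range over all 6 -0.0358 to 0.0202), and ADAMTS1 with library totals (-0.0212) and without DMSO replicate 3 (range over all 6 -0.0025 to 0.2177).

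Over all genes, 634 were called (132 higher, 502 lower). DESeq2 called 984 (304 higher), no filter gave 269 higher, log2(FPKM + 0.1) with the minimum gave 411 (320 lower), log2(FPKM + 1) gave 388 (87 higher, 301 lower) and log2(FPKM + 0.1) with no filter 245 (54 higher, 191 lower). Leaving out a library gave 249 to 861 calls, 42 to 271 higher and 203 to 590 lower. The 6 calls among the other 55 protease and inhibitor genes became 10 with DESeq2, 2 with log2(FPKM + 0.1), 1 with log2(FPKM + 1), 0 with log2(FPKM + 0.1) and no filter (limma, 16 at an unadjusted p below 0.05) and 0 to 9 when a library was left out, alternatives added after the data were seen. The cause was not tested.

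Replicate numbers were not taken as pairs, since deviations of same-numbered libraries correlated at 0.297, 0.17 and 0.043 across genes, not all above 0.1. Those of differently numbered libraries correlated at -0.273 to 0.106. As a hint from the data, 5 of 6 libraries correlated best with their own number, the exception being GSK-J4 replicate 3 (0.106 with DMSO replicate 2). With the replicate block, 1129 genes were called (406 higher), 10 of the other protease and inhibitor genes, and 4 of the 10 genes were lower, TIMP2 being added (adjusted p = 0.0449).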

Other observations

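The collagenase gene MMP13, which cuts fibrillar collagens, had 157 counts in DMSO replicate 3 against 13 and 33 in DMSO replicates 1 and 2, and 12, 23 and 4 in GSK-J4 replicates 1, 2 and 3. It did not pass the test (log2 fold change -2.45, edgeR adjusted p = 0.152), and the groups overlapped. MMP27 had 24 counts in DMSO replicate 3 and 3 and 3 in the other DMSO libraries, against 1, 2 and 0 with GSK-J4, and was not tested because of its low counts. Both lie on chromosome 1, MMP13 at 183730975 to 183738566 and MMP27 at 183804597 to 183812551. Between them lie MMP10, with 3, 0 and 2 counts with DMSO, and MMP1, with 0, 1 and 0. Both had 0 in each GSK-J4 library. These genes were singled out after their values were seen.

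DMSO replicate 3 was above DMSO replicate 1, and that above DMSO replicate 2, for 6 of the 10 genes, against 14.8% of all tested genes. This order was singled out after the values were seen, so the comparison with all genes is not a test. The 6 were MMP2, MMP9, TIMP2, TIMP3, PCSK6 and FURIN, and the myofibroblast sum had the same order (4354, 3720 and 3097 CPM). TAGLN was the largest part of that sum, at 1794.6, 1290.5 and 1963.7 CPM in DMSO replicates 1, 2 and 3. Not every marker had this order. ACTA2 and POSTN were lowest in DMSO replicate 1 and TNC in DMSO replicate 3, while the other markers had the order of the sum. The PCSK6 counts in this order were low, at 59, 45 and 73 in DMSO replicates 1, 2 and 3. With GSK-J4 PCSK6 was higher and the myofibroblast sum lower, and a link between them was not tested.

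On the chromosome, PCSK6 had 16 other tested genes within 250 kb, measured between gene centres, of which 2 were called. Its tested neighbours by position were SNRPA1, which was called lower (-0.94), and PLEKHO2 (-0.22).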
